A study of Homo sapiens with 20 samples.

Results

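The 5 genes described here, MDM2, MDM4, PPM1D, CCNG1 and RCHY1, encode proteins that hold the tumour suppressor p53 in check. They were taken by gene symbol, in a choice made with earlier results of these data known, and are 5 of the 26485 gene rows in the tables. RNA from nuclei of HCT116, a line from a colorectal carcinoma whose p53 is wild type, was depleted of ribosomal RNA and sequenced with a directional kit. The study asked whether blocking p53 from the Mediator coactivator complex with a stapled peptide dampens the p53 response. Electroporation carried water or 10 µM of the peptide (Peg6, a bivalent peptide in the labels) into the cells, which were then kept for 3 hours in medium with 0.1% DMSO, alone or with 10 µM Nutlin-3a, and the peptide wells had a further 200 nM of peptide in the medium. This gave 4 conditions: DMSO with water, DMSO with peptide, Nutlin with water and Nutlin with peptide. Electroporation and DMSO are common to all of them. Experiment 1 holds 2 replicates of each condition and experiment 2 holds 3, or 20 libraries in all. HCT116 is a single line, and the labels do not say that the replicates came from separate cultures, so the p-values measure only the spread between these libraries, which may be technical.

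The transcription factor p53 is kept at a low level by its own targets. MDM2 is a ubiquitin ligase that covers the activation domain of p53 and marks p53 for degradation, and Nutlin-3a fills the pocket of MDM2 that p53 binds. MDM4 is a relative of MDM2 that also covers the activation domain and pairs with MDM2. PPM1D encodes the phosphatase WIP1, which removes activating phosphates from p53 and from the kinases upstream of it. CCNG1 encodes cyclin G1, which brings the phosphatase PP2A to MDM2, and RCHY1 encodes PIRH2, another ubiquitin ligase for p53. Because p53 in turn activates MDM2, and PPM1D and CCNG1 are also known targets, these genes close a negative feedback loop.

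MDM2 has a constitutive promoter and, inside the gene, a promoter that p53 is known to use. The 2 tables count MDM2 from different starts on hg38. The row of experiment 1 runs from the first start, chr12:68808172-68839849, and that of experiment 2 from the second start, chr12:68809017-68839849, both on the plus strand. The starts lie 845 bases apart, which is 2.67% of the row of experiment 1. The sequence just before each start is shown because it sets apart the promoters that the rows begin at. Both are RefSeq sequence of GRCh38.p14, plus strand, and capitals mark matches to the p53 response element. The first window is chr12:68807922-68808171 (250 bases) and the second is chr12:68808767-68809001 (235 bases).
MDM2 first start: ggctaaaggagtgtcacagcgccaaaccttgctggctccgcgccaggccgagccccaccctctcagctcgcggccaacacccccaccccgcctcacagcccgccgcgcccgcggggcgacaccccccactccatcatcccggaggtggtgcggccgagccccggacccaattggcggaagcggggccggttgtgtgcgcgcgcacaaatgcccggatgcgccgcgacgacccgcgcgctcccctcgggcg
MDM2 second start: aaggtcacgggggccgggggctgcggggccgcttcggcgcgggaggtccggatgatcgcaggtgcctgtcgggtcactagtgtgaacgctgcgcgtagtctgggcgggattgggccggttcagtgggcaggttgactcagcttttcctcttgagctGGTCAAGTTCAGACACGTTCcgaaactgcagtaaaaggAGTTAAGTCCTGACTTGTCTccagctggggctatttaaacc

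The element was searched by its name, as 2 adjoining half-sites of 10 bases with at most 3 mismatches in the 20, and its consensus is its own reverse complement, so 1 search covers both strands. The window before the second start holds 2 matches and the window before the first start holds 0. The match at chr12:68808923-68808942, GGTCAAGTTCAGACACGTTC, has 2 mismatches, and that at chr12:68808961-68808980, AGTTAAGTCCTGACTTGTCT, has 3. They begin 94 and 56 bases before the second start, inside the row of experiment 1 and outside that of experiment 2. Of 35116 promoter windows of 250 bases, 4.36% hold at least 1 match and 0.231% hold 2 or more. The RefSeq promoter windows of the other members hold 0 matches, which says only that these letters are not in those windows. A match is a description of the letters and not a measured site of p53 binding.

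**Figure D1:**
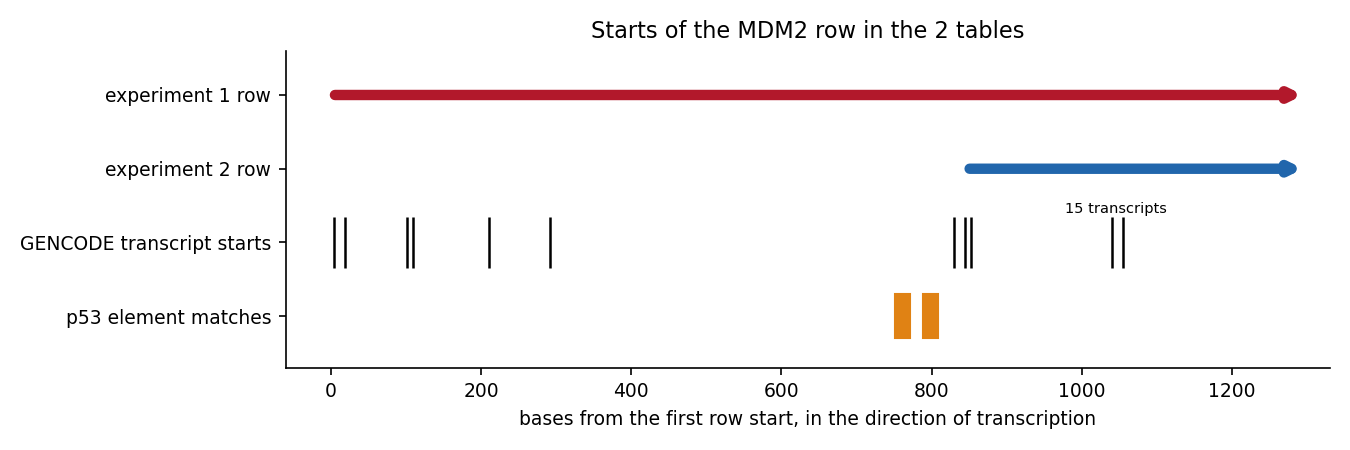
The first part of the MDM2 gene, with the x axis in bases from the start of the row of experiment 1, in the direction of transcription. The arrows are the rows of experiments 1 and 2, 845 bases apart at their starts, the vertical lines are starts of annotated GENCODE transcripts, and the boxes are the 2 matches to the p53 response element, which lie between the row starts.

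GENCODE lists 34 MDM2 transcripts, of which 7 start within 300 bases of the first start and 22 within 300 bases of the second. A row counts reads over its whole span, introns included, so transcripts from either start contribute to nearly all of it, and use of the promoters cannot be told apart from these values. Introns make up 92.3% of the MDM2 row of experiment 1. The other rows on hg38 are MDM4 at chr1:204516379-204549682 (plus strand), PPM1D at chr17:60600183-60663552 (plus), CCNG1 at chr5:163437571-163442565 (plus) and RCHY1 at chr4:75479037-75494124 (minus). Introns make up 92.3% of the MDM4 row, 96.4% of the PPM1D row, 70.0% of the CCNG1 row and 67.5% of the RCHY1 row. The RCHY1 row begins 20640 bases downstream of the annotated start of the gene and covers 42.2% of it, so it reports the distal part of the gene only. No other row of the tables overlaps a member. In GENCODE, AC025423.1 overlaps 436 bases of the MDM2 row on the same strand, where reads of the 2 genes cannot be told apart.

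The libraries of experiment 1 had 36717795 to 63896604 reads in gene rows, and those of experiment 2 had 18787172 to 47407746. Of 6 epithelial markers, KRT8 averaged 1383 RPM (reads per 1e+06 reads of the gene rows), KRT18 654, EPCAM 256, CDH1 51.1 and CDX2 12.7 RPM, while VIL1 had 0.191 RPM. None of the 7 markers of other cell types averaged more than 0.640 RPM, and their sum ranged from 0.425 to 3.6 RPM. The library of replicate 2 of Nutlin with water in experiment 1 was unlike the rest and is called the outlying library below. Its correlation across genes with replicate 1 of its group was 0.955, where the other groups of that experiment had 0.992 to 0.997. The 10 rows with the most reads made up 43.5% of it and 25.1 to 30.4% of the others of that experiment. In experiment 2 every library correlated less with its own group, at 0.934 to 0.945. In experiment 2, the replicate number set more of the spread than the condition did, as shown further on.

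Levels below are RPM scaled between libraries by a trimmed mean of M values, and the members held 183 to 18332 reads per library. In such bulk RNA, a change in some of the cells and a smaller change in all of them cannot be told apart. Per kilobase of row, the levels in DMSO with water in experiment 1 (n = 2, SD) were 4.67 ± 0.18 for MDM2, 3.71 ± 0.20 for CCNG1, 1.88 ± 0.06 for MDM4, 1.13 ± 0.02 for RCHY1 and 0.82 ± 0.05 scaled RPM per kilobase for PPM1D. No neighbours in that order overlapped. In experiment 2 (n = 3, SD) the same levels per kilobase were 8.49 ± 3.82 for CCNG1, 1.79 ± 0.54 for RCHY1, 1.44 ± 0.81 for MDM2, 0.83 ± 0.18 for PPM1D and 0.46 ± 0.23 for MDM4. The libraries of CCNG1 did not overlap those of RCHY1, next in that order, and those of PPM1D did not overlap those of MDM4, while RCHY1 and MDM2, and MDM2 and PPM1D, overlapped. The tables were normalized separately, so a level is not set across experiments as a result. The rows differ in intron share, given above, so these orders rank reads per kilobase of row and not amounts of transcript.

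**Figure D2:**
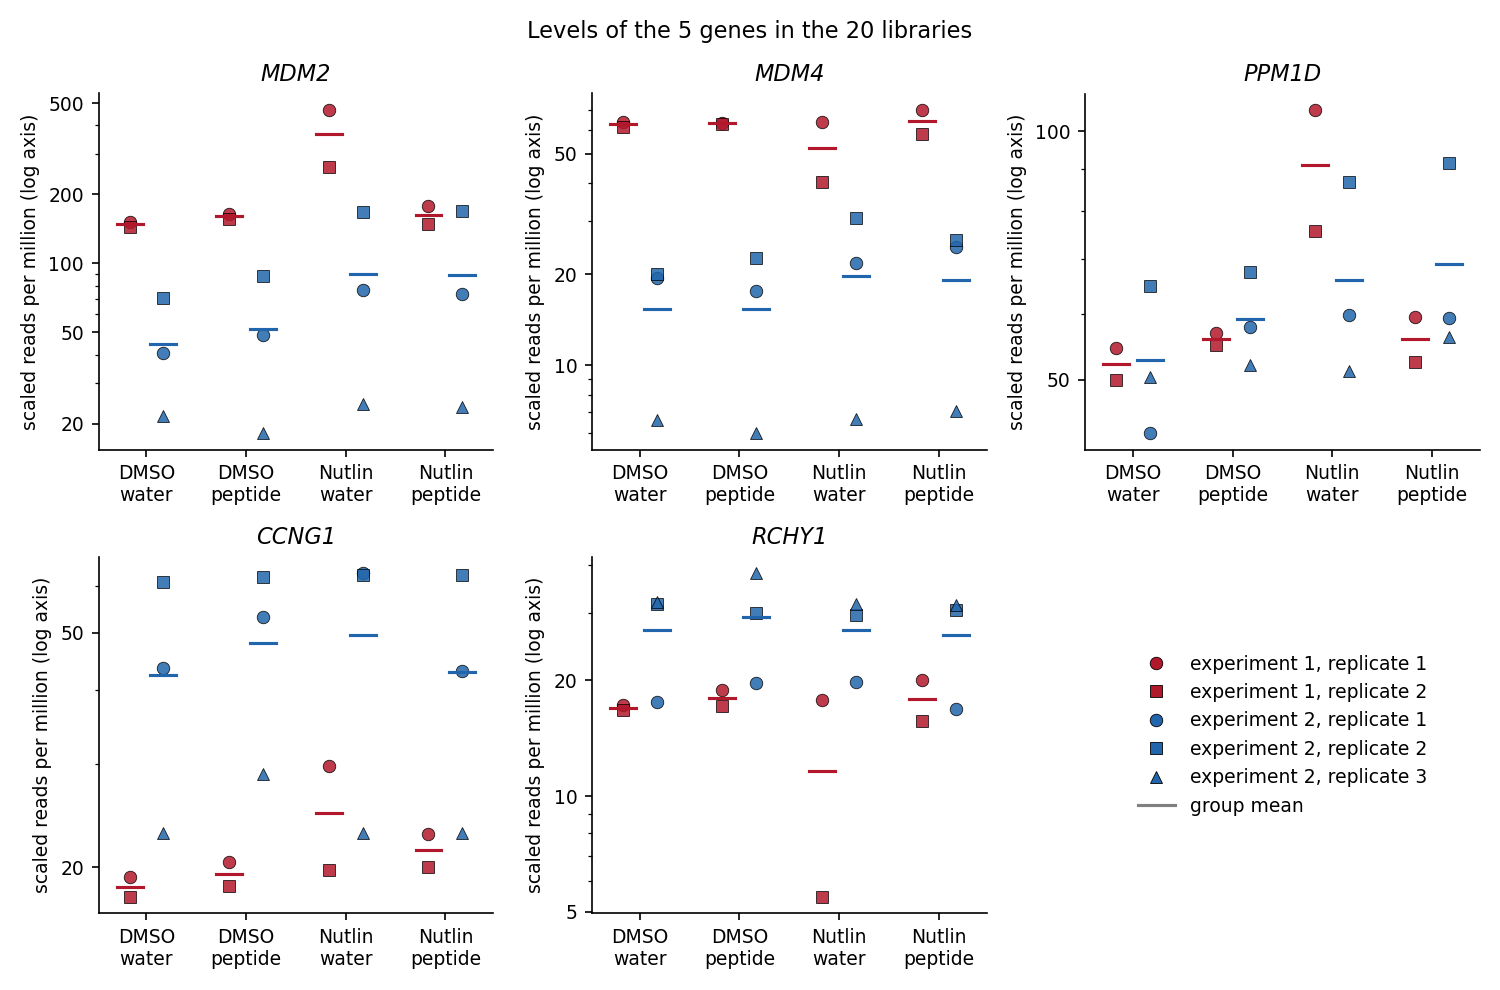
Levels of the 5 genes in the 20 libraries, 1 panel per gene, with condition on the x axis and scaled RPM on a log y axis. Colours are the experiments, symbols the replicate numbers and bars the group means. MDM2 reads 469 and 262 in Nutlin with water of experiment 1 and 144 to 177 in the other 6 libraries of that experiment, and in experiment 2 the symbols keep nearly the same order in every condition.

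Across all 15958 genes tested, limma found 0 calls (0%) at an adjusted p under 0.05 for Nutlin against DMSO in water, both with a term for experiment and with the 5 same-numbered sets of libraries as blocks. At an unadjusted p under 0.05 there were 71 genes higher (0.445%) and 23 lower (0.144%) with the experiment term, and 559 (3.5%) and 601 (3.77%) with blocks. The experiment term does not take up the spread between replicate numbers, so the SE from that fit holds it. An interval from that fit that holds 0 thus does not show that a gene was unchanged. None of the 5 members was called in either fit. The values that follow therefore describe the members, and where a p is given it is stated whether it is adjusted over all genes.

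MDM2 had the highest value of the 5 genes for Nutlin-3a, at a fold of 1.95. In experiment 1, the libraries of DMSO with water read 152 and 144 scaled RPM and those of Nutlin with water 469 and 262. In experiment 2, replicates 1 to 3 read 40.6, 70.8 and 21.6 in DMSO with water and 76.9, 168 and 24.4 in Nutlin with water. The groups did not overlap in experiment 1. They overlapped in experiment 2, where the replicates differed more among themselves than between conditions, and each Nutlin library was above the DMSO library of its number. The log2 change was 0.96 ± 0.53 (SE, 95% interval -0.16 to 2.08, unadjusted p = 0.0877, adjusted p = 1.00 by limma). With blocks its SE was 0.18 (95% interval 0.59 to 1.33, unadjusted p = 3.2e-05, adjusted p = 0.0674), which ranked MDM2 6 of 15958 genes and still missed the threshold. The pairs gave log2 differences of 1.62 and 0.86 in experiment 1 and 0.91, 1.24 and 0.17 in experiment 2. Among all genes these stood at percentiles 99.96, 95.6, 99.8, 99.9 and 86.2 of their own pair.

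With limma-voom and blocks, 15 genes were called for Nutlin-3a (0.094% of those tested) and MDM2 was among them, at a log2 change of 0.98 (adjusted p = 0.0393). With blocks and library weights MDM2 was 1 of 31 genes called of the 15958 tested, at 0.84 (adjusted p = 0.0307 by limma). In experiment 1 without replicate 2 of Nutlin with water, which leaves 1 library in that group, the log2 change was 1.69. Over the 19 alternatives other than leaving out each library in turn, the MDM2 change lay between 0.77 and 1.69. In 16 of the 19 it stayed uncalled.

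In the peptide-treated cells of experiment 1, MDM2 read 165 and 156 scaled RPM with DMSO and 177 and 149 with Nutlin. Of the Nutlin libraries with peptide, 1 thus lay just above all 4 DMSO libraries of that experiment and the other among them, and both lay below the Nutlin libraries with water. In experiment 2 the peptide libraries read 48.8, 88.4 and 18.1 with DMSO and 73.8, 169 and 23.8 with Nutlin. There each Nutlin library with peptide was within 0.06 on the log2 scale of the Nutlin library with water of its number. Peptide against water under Nutlin gave a log2 change of -0.46 ± 0.53 (95% interval -1.58 to 0.66, adjusted p = 1.00; with blocks unadjusted p = 0.0181 and adjusted p = 0.592). The change was -1.11 in experiment 1 and -0.03 in experiment 2. With the outlying library left out, experiment 1 alone gave -1.57, with 1 library of Nutlin and water.

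The MDM4 libraries overlapped between conditions in both experiments. In experiment 1 its libraries read 63.9 and 61.1 scaled RPM in DMSO with water, 63.8 and 40.3 in Nutlin with water, 63.0 and 63.0 in DMSO with peptide and 69.9 and 58.2 in Nutlin with peptide. The value of 40.3 comes from the outlying library, and the other 7 lay between 58.2 and 69.9. In experiment 2, MDM4 ranged from 5.96 to 30.7 with a median of 19.7, and replicate 3 was the lowest in all 4 conditions, at 5.96 to 7.06. Each Nutlin library there was above the DMSO library of its number. The log2 differences were 0.16, 0.60 and 0.01 with water and 0.47, 0.19 and 0.23 with peptide. Experiment 2 alone with blocks gave 0.25 and 0.30 (adjusted p = 0.203 and 0.213 by limma). The log2 change for Nutlin-3a was 0.03 ± 0.44 (95% interval -0.88 to 0.95, adjusted p = 1.00 by limma), and 3 of 5 pairs were higher. That interval reaches up to 0.95, close to the MDM2 value, whereas the interval with blocks was -0.22 to 0.29. The change was 0.18 without the outlying library (adjusted p = 1.00). In peptide-treated cells the log2 change for Nutlin-3a was 0.19 ± 0.44, higher in 4 of 5 pairs.

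PPM1D placed the 8 libraries of experiment 1 in the same order of level as MDM2 did. There it read 54.6 and 49.9 scaled RPM in DMSO with water and 106 and 75.6 in Nutlin with water. With peptide it read 56.9 and 55.1 in DMSO and 59.5 and 52.6 in Nutlin, so that both Nutlin libraries with water stood above the other 6. In experiment 2 it read 43.0, 64.9 and 50.4 in DMSO with water and 60.0, 86.9 and 51.2 in Nutlin with water. The groups of experiment 2 overlapped, although each Nutlin library was above its DMSO partner. The log2 change for Nutlin-3a was 0.49 ± 0.19 (fold 1.41, 95% interval 0.10 to 0.88, unadjusted p = 0.0168, adjusted p = 1.00 by limma). With blocks the unadjusted p was 0.000671 and the adjusted p 0.275. The pairs gave 0.95 and 0.60 in experiment 1 and 0.47, 0.42 and 0.02 in experiment 2. In experiment 1 with the outlying library left out, the change was 1.05, from 1 library of Nutlin with water.

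With peptide, PPM1D in experiment 2 read 58.0, 67.5 and 52.1 scaled RPM in DMSO and 59.5, 91.6 and 56.3 in Nutlin. Under Nutlin the libraries with peptide differed from those with water of their number by -0.01, 0.08 and 0.14 on the log2 scale. Peptide against water under Nutlin was -0.23 ± 0.19 on the log2 scale (95% interval -0.62 to 0.16, adjusted p = 1.00 by limma), with -0.68 in experiment 1 and 0.07 in experiment 2. With the outlying library left out, experiment 1 alone gave -0.96, with 1 library of Nutlin and water.

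CCNG1 had small values for Nutlin-3a, carried by 2 of the 5 pairs. In experiment 1 it read 19.3 and 17.8 scaled RPM in DMSO with water and 29.7 and 19.8 in Nutlin with water. In experiment 2 it read 43.5, 61.0 and 22.8 in DMSO with water and 63.1, 62.6 and 22.9 in Nutlin with water. Replicate 1 of each experiment was higher with Nutlin, by 0.61 and 0.53 on the log2 scale, while the other pairs differed by 0.15, 0.04 and 0.003. The log2 change was 0.27 ± 0.32 (95% interval -0.40 to 0.94, adjusted p = 1.00 by limma; with blocks unadjusted p = 0.0184 and adjusted p = 0.664). It was higher in 5 of 5 pairs, and in 4 of 5 where the libraries were not scaled beyond RPM. Experiment 1 alone gave 0.42, and 0.70 with the outlying library left out (1 library of Nutlin with water). With peptide, CCNG1 in experiment 1 read 20.4 and 18.6 in DMSO and 22.8 and 19.99 in Nutlin, and in experiment 2 it read 53.3, 62.1 and 28.8 in DMSO and 43.1, 62.6 and 22.8 in Nutlin. In replicates 1 and 3 of experiment 2 the Nutlin library with peptide was thus below the DMSO library with peptide.

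RCHY1, read over the distal part of the gene, was nearly level across the conditions apart from 1 library. In experiment 1 it read 17.3 and 16.7 scaled RPM in DMSO with water and 17.8 and 5.46 in Nutlin with water, and between 15.7 and 20.1 with peptide. The 5.46 is 183 reads of the outlying library, and its pair gave a log2 difference of -1.53, at percentile 0.226 of all genes in that pair. In experiment 2 RCHY1 ranged from 16.8 to 38.0 with a median of 30.2, and replicate 1 was the lowest in all 4 conditions, at 16.8 to 19.8. The log2 change for Nutlin-3a was -0.28 ± 0.29 (95% interval -0.90 to 0.33, adjusted p = 1.00 by limma) and 0.03 without that library. For peptide against water under Nutlin it was 0.28 ± 0.29 with that library and -0.04 without it. The direction of both values thus rests on 1 library of 20.

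Taking the 5 genes together, 4 had a log2 change above 0 for Nutlin-3a in water and their median was 0.27, beside 45.02% above 0 and a median of -0.02 over all genes tested. All 5 were above 0, with a median of 0.32, without the outlying library. MDM2, PPM1D and CCNG1 were higher in all 5 pairs, which 3.07% of the genes tested were. The same 3 had an unadjusted p under 0.05 and a higher value with blocks, beside 3.5% of all genes, and with the experiment term only PPM1D did, beside 0.445%. In the peptide-treated cells, Nutlin against DMSO gave log2 changes of 0.39 ± 0.53 for MDM2, 0.19 ± 0.44 for MDM4, 0.12 ± 0.19 for PPM1D, -0.07 ± 0.32 for CCNG1 and -0.10 ± 0.29 for RCHY1. Limma called 0 genes (0%) in that comparison in both fits, with 19 higher (0.119%) and 7 lower (0.0439%) at an unadjusted p under 0.05, and 191 (1.2%) and 100 (0.627%) with blocks, and limma-voom with blocks called 16 (0.1%), none a member. No member was higher in all 5 pairs there, beside 1.79% of all genes. By limma with blocks, MDM2 was the only member with an unadjusted p under 0.05, at 0.0410 (adjusted p = 1.00).

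**Figure D3:**
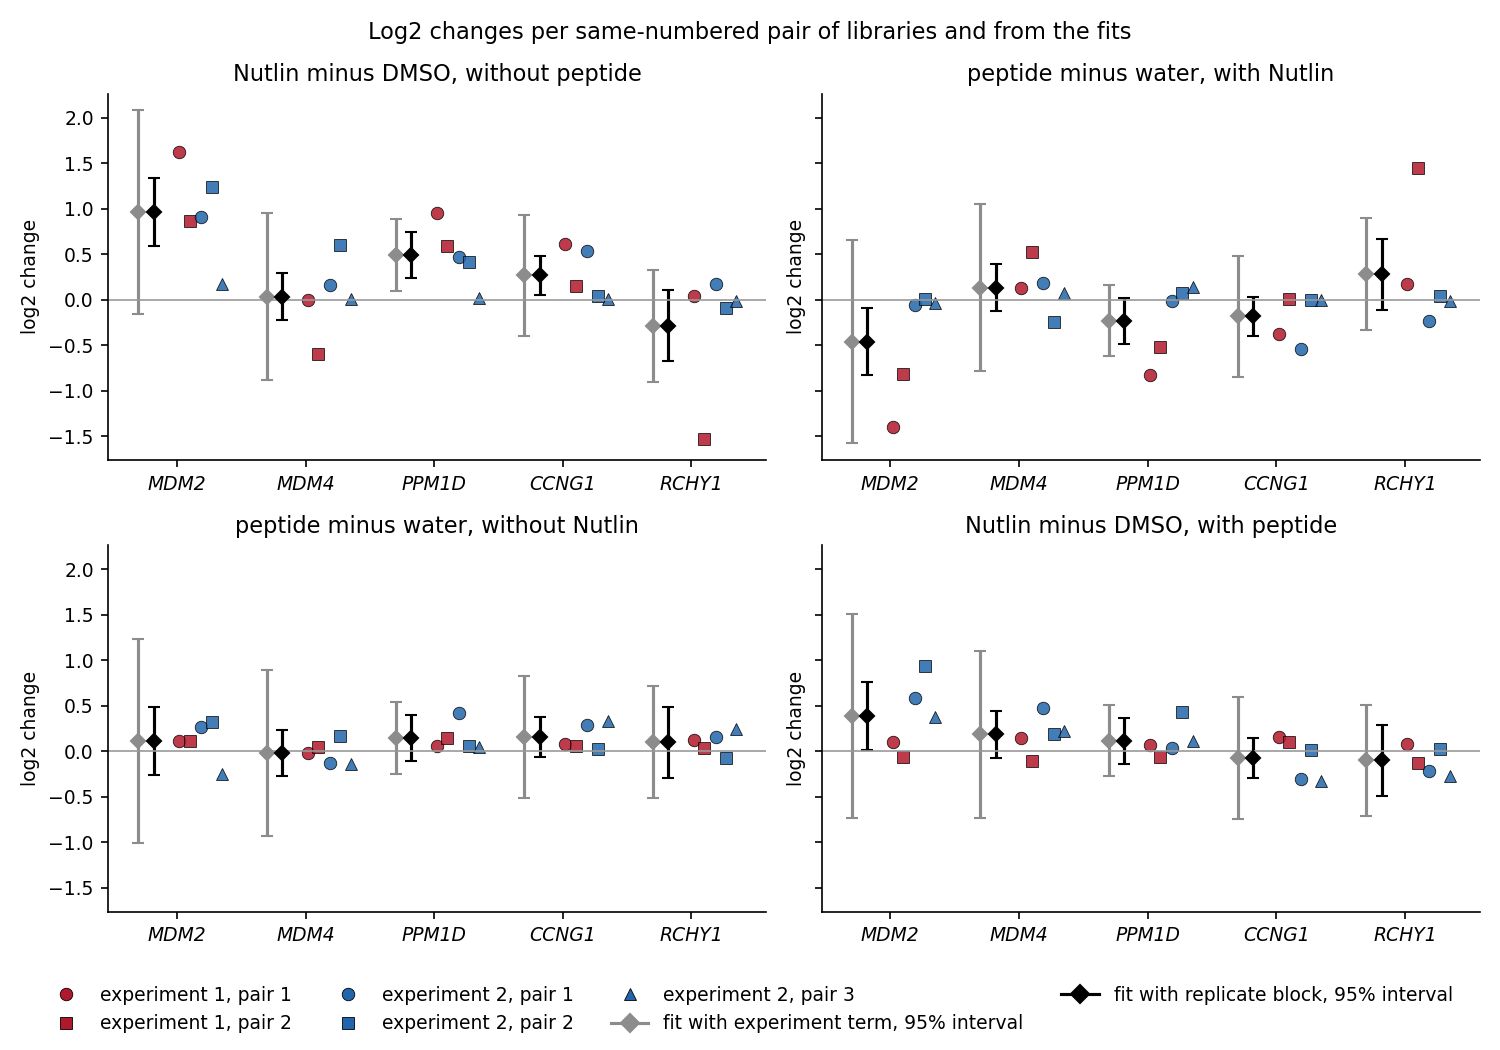
Log2 changes of the 5 genes in 4 comparisons, 1 panel each, with the genes on the x axis and the log2 change on the y axis. Coloured points are the 5 same-numbered pairs of libraries, and diamonds with bars are the fitted change and its 95% interval with the experiment term (grey) and with replicate blocks (black). For Nutlin against DMSO without peptide the MDM2 pairs lie between 0.17 and 1.62, and for peptide against water with Nutlin the 2 pairs of experiment 1 lie at -1.40 and -0.81 while those of experiment 2 lie near 0.

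The peptide was also compared with water in cells without Nutlin-3a, which addresses its effect on the 5 genes where p53 was not freed from MDM2 by the drug. The log2 changes were 0.11 ± 0.53 for MDM2, -0.02 ± 0.44 for MDM4, 0.15 ± 0.19 for PPM1D, 0.16 ± 0.32 for CCNG1 and 0.10 ± 0.29 for RCHY1. Their 95% intervals with the experiment term all held 0. The widest was -1.0 to 1.2 for MDM2 and the narrowest -0.25 to 0.54 for PPM1D. Limma called 0 of 15958 genes (0%) in both fits, with 9 genes higher (0.0564%) and 5 lower (0.0313%) at an unadjusted p under 0.05, and 97 (0.608%) and 82 (0.514%) with blocks. Limma-voom with blocks called 0 genes. PPM1D and CCNG1 were higher with peptide in 5 of 5 pairs, beside 6.86% of all genes, and PPM1D in 4 of 5 where the libraries were not scaled beyond RPM. With blocks the 95% intervals were -0.26 to 0.49 for MDM2, -0.27 to 0.24 for MDM4 and -0.29 to 0.49 for RCHY1. They were -0.11 to 0.40 for PPM1D and -0.06 to 0.37 for CCNG1, so all of them hold 0.

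Under Nutlin-3a, limma called 0 genes (0%) for peptide against water in both fits. At an unadjusted p under 0.05 there were 35 genes higher (0.219%) and 45 lower (0.282%) with the experiment term, and 771 (4.83%) and 544 (3.41%) with blocks, and limma-voom with blocks called 3 (0.0188%), none of them a member. Of the members, MDM2, PPM1D and CCNG1 had log2 changes below 0 (-0.46, -0.23 and -0.18) and MDM4 and RCHY1 above 0 (0.13 and 0.28). Without the outlying library all 5 were below 0, with MDM4 at -0.02 and RCHY1 at -0.04. MDM2 was the only member with an unadjusted p under 0.05 and a lower value with blocks, beside 3.41% of all genes. With blocks and library weights its log2 change was -0.31 (unadjusted p = 0.0877 by limma). No member was lower in all 5 pairs, beside 2.54% of all genes, although MDM2 was where the libraries were not scaled beyond RPM.

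Whether the response to Nutlin-3a was itself smaller with the peptide was tested as an interaction, the change with peptide minus the change with water. It was -0.57 ± 0.75 on the log2 scale for MDM2 (95% interval -2.16 to 1.01), -0.38 ± 0.26 for PPM1D and -0.34 ± 0.45 for CCNG1. For MDM4 it was 0.15 ± 0.62 and for RCHY1 0.18 ± 0.41, and all 5 had an adjusted p of 1.00 by limma. With blocks the unadjusted p was 0.0342 for MDM2, 0.0409 for PPM1D and 0.0318 for CCNG1, each with an adjusted p of 0.999. These are 3 of the 5 members beside 0.984% of all genes with a lower value at that unadjusted p. With blocks and library weights the interaction was -0.36 for MDM2, -0.20 for PPM1D and -0.26 for CCNG1. The unadjusted p there was 0.111, 0.169 and 0.0334 by limma. CCNG1 was lower in 5 of 5 pairs, beside 1.94% of all genes, MDM2 in 4 and PPM1D in 3. The CCNG1 pairs gave -0.46 and -0.05 in experiment 1 and -0.83, -0.03 and -0.33 in experiment 2. Limma called 0 genes (0%) for the interaction in both fits, with 10 higher (0.0627%) and 18 lower (0.113%) at an unadjusted p under 0.05 with the experiment term and 135 (0.846%) and 157 (0.984%) with blocks, and limma-voom with blocks called 4 (0.0251%), none a member. Within experiment 1 alone the interaction was -1.25 for MDM2 and -0.81 for PPM1D (adjusted p = 0.896 for both), and within experiment 2 alone it was -0.13 and -0.10 (adjusted p = 1.00). With the outlying library left out, experiment 1 keeps 1 library of Nutlin with water. The interaction there was -1.65 for MDM2 and -1.03 for PPM1D. The library left out had the lower level of both genes in its group, at 262 scaled RPM for MDM2 and 75.6 for PPM1D. The 4 conditions enter several of these comparisons, and the Nutlin libraries with water are shared between the Nutlin comparison, the peptide comparison and the interaction, so their values are not independent of each other.

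**Figure D4:**
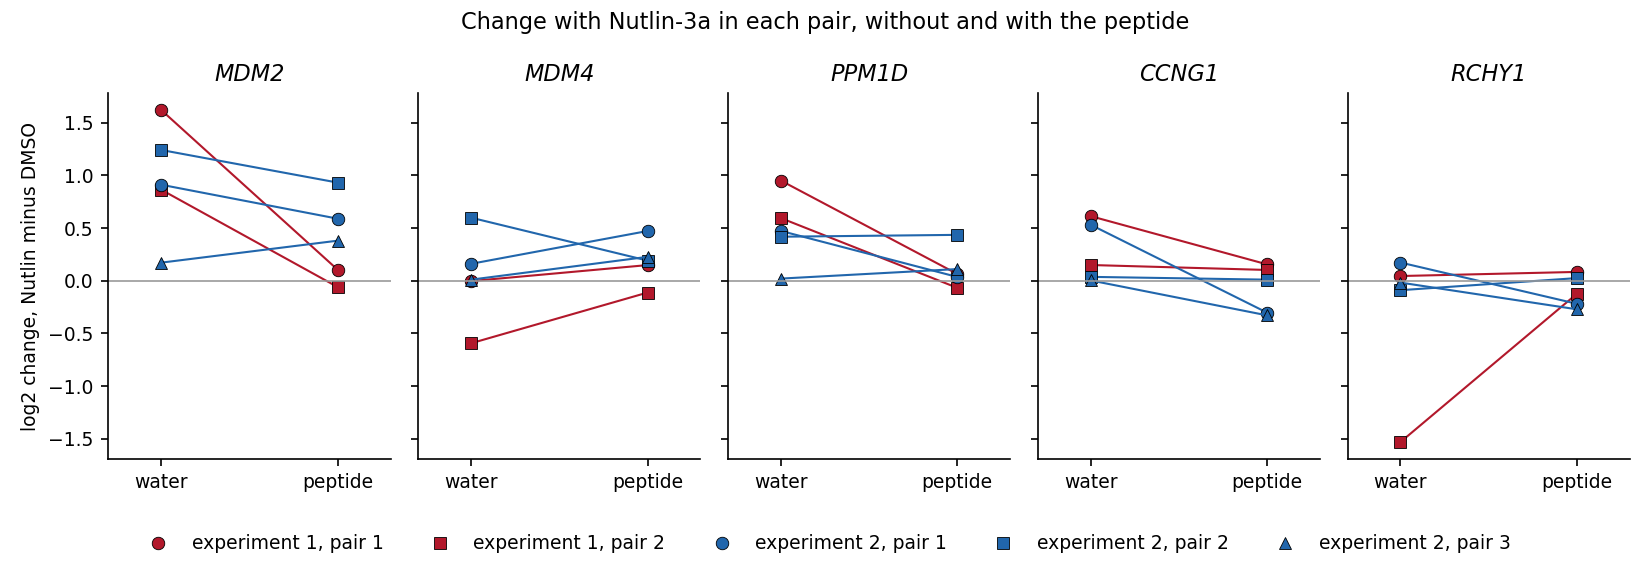
The log2 change with Nutlin-3a (y axis) in each same-numbered pair, without the peptide (water) and with it, 1 panel per gene. A line joins the values of 1 replicate number. For MDM2 both lines of experiment 1 fall from 1.62 and 0.86 to 0.10 and -0.06, 2 of the 3 lines of experiment 2 fall by about 0.3 and the third rises by 0.21.

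For peptide against water under Nutlin, the values of MDM2 and PPM1D lay further from 0 in experiment 1 than in experiment 2. The difference between experiments in that comparison (experiment 1 minus experiment 2) was -1.08 for MDM2 (with blocks unadjusted p = 0.00117, adjusted p = 0.101 by limma) and -0.74 for PPM1D (unadjusted p = 0.000616, adjusted p = 0.0827), and neither passed the threshold. With blocks 52 of the 15958 genes tested were called for that difference, none a member. On group means without blocks 0 were called. There the unadjusted p by limma was 0.372 for MDM2 and 0.064 for PPM1D. For Nutlin against DMSO in water the MDM2 change was 1.24 in experiment 1 and 0.78 in experiment 2, and that difference of 0.47 had an adjusted p of 0.254 with blocks. In peptide-treated cells the MDM2 change with Nutlin-3a was 0.02 in experiment 1 and 0.63 in experiment 2, a difference of -0.61 (adjusted p = 0.366 with blocks by limma).

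The spread of each gene was divided between condition and replicate number within each experiment. In experiment 1 the condition took 84.1% of the sum of squares of the log2 values of MDM2 and 84.2% of those of PPM1D, above the median of 40.5% over all genes. It took 36.9% for MDM4, 46.2% for CCNG1 and 40.7% for RCHY1. Without the outlying library, which leaves 1 library of Nutlin with water and so no spread within that group, the condition took 98.3% for MDM2, 96.9% for PPM1D, 91.2% for CCNG1, 9.77% for RCHY1 and 2.92% for MDM4, beside a median of 59.1% over all genes. In experiment 2 the replicate number took 85.5% for MDM2, 95.7% for MDM4, 66.9% for PPM1D, 93.3% for CCNG1 and 94.4% for RCHY1, beside a median of 86.7% over all genes. The condition there took 22.2% for PPM1D and 11.3% for MDM2, against a median of 5.30%, and under 3% for MDM4, CCNG1 and RCHY1. Replicate 3 of experiment 2 had the lowest MDM2, MDM4 and CCNG1 level and replicate 1 the lowest RCHY1 level in each of the 4 conditions. What sets the replicate numbers apart was not tested.

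**Figure D5:**
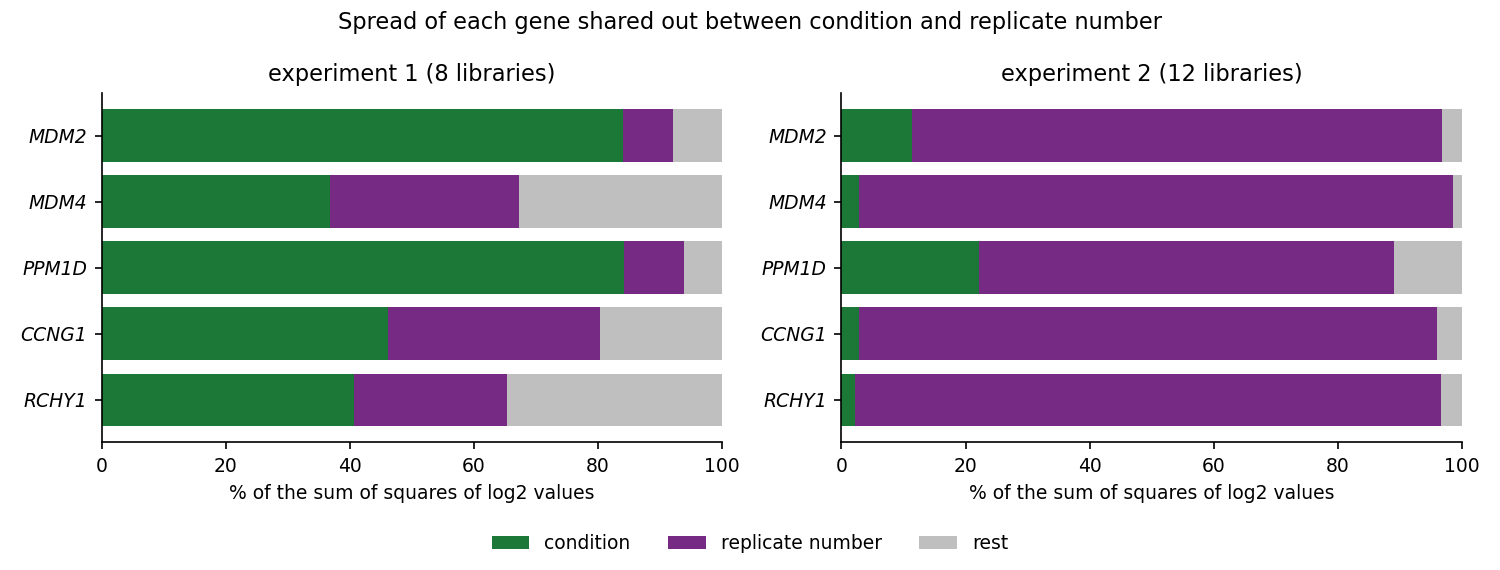
The share of each gene's sum of squares of log2 values (x axis, %) that goes with condition, with replicate number and with neither, in experiment 1 (8 libraries) and experiment 2 (12 libraries). In experiment 1 condition takes 84.1% for MDM2 and 84.2% for PPM1D, and in experiment 2 replicate number takes 66.9 to 95.7% for the 5 genes.

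Lists of genes around the loop show how the members stand within their pathway. For Nutlin-3a in water, 45.02% of all genes tested had a log2 change above 0, and 48.3% without the outlying library. Of 27 tested genes that restrain p53 by other routes, 5 had a log2 change above 0 for Nutlin-3a in water, with a median of -0.06 (also 5 and -0.06 without that library), and 0 were called. SYVN1, an ER ubiquitin ligase, had 0.26 ± 0.13, the deacetylase gene SIRT1 had -0.18 ± 0.13, TOPORS had -0.16 ± 0.11 and the ligase gene MKRN1 had -0.19 ± 0.15. Of 14 inhibitors that bind MDM2, 2 were above 0 and the median was -0.15 (3 and -0.14 without that library). Among them RPS27L had 0.24 ± 0.17, the nucleolar protein gene NPM1 -0.30 ± 0.22, and the ribosomal protein genes RPL5 and RPL11 -0.20 ± 0.22 and -0.22 ± 0.27. All 14 were above 0 for peptide against water under Nutlin, with a median of 0.12, beside 60.6% of the genes tested and a median of 0.04. Without the outlying library 11 of the 14 were, beside 52.0% of all genes. For peptide against water without Nutlin 13 of the 14 were above 0, beside 62.9% of all genes. For the interaction 9 of the 14 were, beside 53.3% of all genes.

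Of 12 kinases upstream of p53 and substrates of WIP1, 2 were above 0 for Nutlin-3a and the median was -0.10 (6 and -0.01 without the outlying library), with the checkpoint kinase gene CHEK1 at -0.30 ± 0.32. Of 13 partners of cyclin G1 with its paralogue, 2 were above 0 and the median was -0.11 (5 and -0.02 without that library). The PP2A catalytic subunit gene PPP2CA had -0.25 ± 0.14, the paralogue CCNG2 -0.24 ± 0.17, and the PP2A regulatory subunit genes PPP2R5B and PPP2R5E 0.25 ± 0.23 and -0.15 ± 0.14. None of these genes was called in either fit.

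The 26 other established p53 targets that were tested were all above 0 for Nutlin-3a in water, beside 45.02% of all genes. Their median was 0.61 (0.50 without the outlying library, with all 26 again above 0). With the experiment term 16 of them had an unadjusted p under 0.05 and a higher value, beside 0.445% of all genes. None of the 26 was called. The death receptor gene TNFRSF10B had 0.62 ± 0.13, PHLDA3 had 1.19 ± 0.28, the DNA repair gene XPC had 0.54 ± 0.13 and the cell cycle inhibitor gene CDKN1A had 1.18 ± 0.29. The MDM2 value of 0.96 thus lay above the median of that list, PPM1D at 0.49 and CCNG1 at 0.27 below it. Under Nutlin with peptide against water, 24 of the 26 were below 0 (median -0.35), and for the interaction all 26 were (median -0.48), beside medians of 0.04 and 0.01 over all genes. Of the 15958 genes tested, 6295 and 7451 were below 0 in these 2 comparisons. The counts for the 26 targets were again 24 and 26 without the outlying library, with medians of -0.26 and -0.40. For peptide against water without Nutlin, 24 of the 26 were above 0 (median 0.11), beside 62.9% of all genes. Of them 9 were higher in all 5 pairs, beside 6.86%. In peptide-treated cells 23 of the 26 were above 0 for Nutlin against DMSO (median 0.19), beside 44.9% of all genes. The interaction thus also holds the peptide values without Nutlin. Those lists were chosen with earlier results of these data known, so the counts are descriptions.

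The genes whose pattern was most like that of each member were taken by Pearson r over the 20 libraries after the mean of each experiment was removed, among 11837 genes. The libraries share replicate sets and depth, so r is a description and carries no p. MDM2 was most like SUSD6 (0.948), PLCL2 (0.921), FBXO22 (0.916), KSR1 (0.908) and TANC1 (0.904). PPM1D was most like SESN1 (0.938), FAS (0.929) and ACER2 (0.927). MDM4 was most like NPNT (0.983), ZFX (0.982) and LAMC1 (0.982), CCNG1 was most like PTP4A1 (0.959), SCOC (0.948) and PLCL2 (0.948), and RCHY1 was most like ANP32E (0.990), TOP2B (0.984) and SMNDC1 (0.983). Among the members themselves, MDM2 and PPM1D had an r of 0.997 over the 8 libraries of experiment 1 and 0.848 over the 12 of experiment 2, and MDM2 and MDM4 had -0.233 and 0.931. Without the outlying library the r of MDM2 with PPM1D in experiment 1 was 0.997 and with MDM4 0.210. Over all 19 libraries the genes named for RCHY1 had r of 0.967 to 0.979. In experiment 1 without that library, the genes named for MDM2 had r of 0.88 to 0.98 and those for PPM1D 0.98 to 0.99. There the genes named for RCHY1 had 0.84 to 0.95, those for CCNG1 0.58 to 0.89 and those for MDM4 0.62 to 0.68.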

How the data were processed

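The values were used as deposited, in 1 table per experiment with 26485 rows and 1 RefSeq isoform per symbol. The tools HISAT2, bedtools and limma and the build hg38 come from the submitters' processing notes, which here give no version or role. The authors deposited reads per 1e+06 reads (RPM) divided by the stop position less a thousandth of the start position, where the design had assumed plain RPM. Multiplied back, columns sum to 1e+06 and 100% of values are whole reads at a tolerance of 0.001. Same-strand rows nested in another row never held more reads than it (0 of 2025 and 0 of 1979 pairs), as counts over whole spans by strand would give.

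Libraries were scaled by a trimmed mean of M values. Log2 of scaled RPM plus 0.5 was fitted with limma 3.58.1 (trend, R 4.3.3) over 15958 genes, those that averaged 0.5 RPM or more, with terms for condition and experiment. Tests are two-sided, adjusted by Benjamini and Hochberg over all genes, and a call is an adjusted p under 0.05. The procedure was tested on simulated data.

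Same-numbered libraries were taken as pairs from the values, since no label states it: across genes, the deviations of such libraries from their condition's mean had r of 0.286 to 0.585 (experiment 1, where 2 replicates mirror each other) and 0.877 to 0.940 (experiment 2). The blocked fit has these 5 sets as blocks.

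The members and gene lists were chosen with earlier results of these data known. Named were the 5 members, the genes most like them among those of at least 5 RPM, markers, and up to 4 genes per list by the p for Nutlin-3a in water. One list that the rule takes is not reported here. Promoter sequence is from RefSeq (GRCh38.p14), which matched all 5 members. Alternatives were other scaling, filters and pseudocounts, limma-voom, blocks, 8 group means, a fit with no experiment term, 1 experiment at a time, structural RNA rows left out and each library left out. Those that join blocks with 1 experiment, or leave out the outlying library beyond the turn of each library, were added after seeing the data.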

Additional observations from a re-analysis of the deposited data

Results flagged for a closer look

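MDM4, the relative of MDM2, was on opposite sides of 0 in the experiments for Nutlin-3a against DMSO in water. Both pairs of experiment 1 were below 0 on the log2 scale (-0.003 and -0.59) and all 3 pairs of experiment 2 were above 0 (0.16, 0.60 and 0.01). With median-of-ratios scaling 4 of 5 pairs were above 0. The difference, experiment 1 minus experiment 2, was -0.56 on the log2 scale (adjusted p = 1.00 on group means and 0.107 with blocks, by limma), so it did not pass the test. The pair at -0.59 holds the outlying library.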

How the results depend on the processing

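The replicate block left 0 genes called in all 5 comparisons and changed no call of a member. It kept the MDM2 change for Nutlin-3a at 0.96 and lowered its adjusted p to 0.0674. Of the member values under the other settings, 441 kept direction and side of the threshold, 8 passed it anew and 26 turned direction. Of the 8, MDM2 for Nutlin-3a passed with limma-voom and blocks and with library weights and blocks. The others are MDM2 and PPM1D values from a fit with 1 library of Nutlin with water, which measures no spread within that group. With limma-voom and blocks, 15 genes were called for Nutlin-3a in water, 3 for peptide under Nutlin, 16 for Nutlin with peptide and 4 for the interaction, and MDM2 passed for Nutlin-3a at 0.98. With library weights and blocks 31 were called for Nutlin-3a, and MDM2 passed at 0.84. With the outlying library left out, blocks gave 5 calls for Nutlin-3a. Experiment 1 alone without that library gave 40 calls for Nutlin-3a, 55 for peptide under Nutlin, 4 for peptide in DMSO, 2 for Nutlin with peptide and 20 for the interaction. There the MDM2 changes were 1.69, -1.57 and -1.65 for Nutlin-3a, peptide under Nutlin and the interaction. Those of PPM1D were 1.045, -0.96 and -1.03, and all of them rest on 1 library of Nutlin with water. With no filter, 1 gene was called for Nutlin with peptide. Experiment 1 alone, with or without blocks, gave 1 call each for peptide under Nutlin, peptide in DMSO and Nutlin with peptide, and the 8 group means gave 1 each for peptide in DMSO, Nutlin with peptide and the interaction. Apart from the samples and genes that each setting leaves out, the cause was not tested.

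Values that turned direction were small or rested on 1 library or experiment. MDM4 for Nutlin-3a was -0.018 with limma-voom, -0.26 in experiment 1 alone with or without blocks and -0.021 on group means. MDM4 for peptide under Nutlin was -0.0091 with blocks and library weights, -0.013 with blocks and without the outlying library and -0.042 in experiment 1 without it, where the MDM4 interaction was -0.026. CCNG1 for Nutlin with peptide was 0.13 in experiment 1 alone with or without blocks and 0.14 without that library. PPM1D for peptide under Nutlin was 0.070 in experiment 2 alone with or without blocks. RCHY1 in experiment 2 alone, with or without blocks, was 0.014 for Nutlin-3a, -0.064 for peptide under Nutlin and -0.17 for the interaction. Without the outlying library RCHY1 for Nutlin-3a was 0.0095 with blocks and 0.095 in experiment 1, for peptide under Nutlin -0.022 and -0.045, and for the interaction -0.11 and -0.10. With library weights the RCHY1 interaction was -0.080.

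With each library left out in turn, 0 genes were called in any comparison. The MDM2 change ranged from 0.68 to 1.397 for Nutlin-3a, from -0.89 to -0.13 for peptide under Nutlin, from -0.15 to 0.44 for peptide in DMSO, from -0.018 to 0.71 for Nutlin with peptide and from -1.01 to -0.25 for the interaction. In the same order MDM4 ranged from -0.25 to 0.32, -0.15 to 0.44, -0.30 to 0.30, -0.13 to 0.49 and -0.16 to 0.45. RCHY1 ranged from -0.45 to 0.032, -0.045 to 0.46, -0.065 to 0.24, -0.25 to 0.073 and -0.14 to 0.37. CCNG1 ranged from 0.072 to 0.53, -0.45 to 0.034, -0.038 to 0.33, -0.23 to 0.14 and -0.60 to -0.12. PPM1D ranged from 0.33 to 0.62, -0.38 to -0.083, 0.078 to 0.23, -0.030 to 0.19 and -0.52 to -0.22.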
